A study of Mus musculus with 9 samples.

Results

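The genes of the inhibin, activin and AMH (anti-Müllerian hormone) system were followed in whole mouse ovaries with and without estrogen receptor β (ERβ). They are 10 of the 46078 genes in the count table, chosen by name: the subunit genes Inha, Inhba and Inhbb, Amh and its receptor Amhr2, the binding proteins Fst and Fstl3, the co-receptor Tgfbr3, and the activin receptors Acvr2a and Acvr2b. Each symbol matched 1 row of the table, and all 10 passed the filter on low counts. The RNA came from 5 WT and 4 ERβKO ovaries, with 1 library per mouse, and the comparison asks what loss of ERβ does to the ovarian transcriptome.

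The ERβKO mice carry a germline deletion of exon 3 of Esr2, the ERβ gene, made by crossing floxed ERβ mice with a Rosa26-Cre deleter line on the C57BL/6J background. WT mice were offspring without Cre. Because the deletion is in every tissue, pituitary and brain lack the receptor as well as the ovary. Mice were 4 to 20 weeks old over all experiments of the study, and ovaries were not taken at a set stage of the estrous cycle. All samples are labelled untreated, although the same records carry a protocol with a high-fat diet and injections of an ERβ agonist, so that the diet of these mice is not certain.

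Inhibins and activins are secreted dimers that share subunits. The α subunit, from Inha, joins βA (Inhba) or βB (Inhbb) to form an inhibin, which lowers FSH output of the pituitary, while dimers of β subunits are activins, which raise it. Activins bind the type II receptors encoded by Acvr2a and Acvr2b, follistatin (Fst) and its relative Fstl3 trap them, and betaglycan (Tgfbr3) helps inhibin occupy the same receptors. AMH is made by granulosa cells of growing follicles, acts through Amhr2, and restrains the recruitment of primordial follicles.

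Library totals were 12353740 to 16519975 counted fragments for WT and 13088728 to 18717510 for ERβKO. Esr2 was measured at 17.8, 12.4, 14.9, 23.9 and 14.5 FPKM (fragments per kilobase of gene, scaled to the mapped fragments of the library) in WT replicates 1 to 5, and at 14.3, 16.2, 10.5 and 23.7 FPKM in ERβKO replicates 1 to 4. These values overlap, and as they include the exons that remain in the deleted allele they do not check the genotype. On the first principal component of log2 CPM (counts scaled to the library total), with 35.9% of the variance, WT replicate 2 was placed at 9.43, with the rest of the WT ovaries at -43.8 to -15.6 and those from ERβKO mice at 19.4 to 35.3. The library numbers in the labels run below 200 except for WT replicates 4 and 5, which are above it, with no ERβKO library among those. What the numbers mark is not stated, and over these 2 libraries a batch and the genotype cannot be told apart. Values without WT replicate 2 are given beside the genes that passed. Markers of granulosa cells and oocytes were present in each ovary, and so was Ovgp1, an oviduct gene, at 1294 to 2359 FPKM in WT and 1483 to 1906 FPKM in ERβKO ovaries, so the libraries also hold oviduct RNA.

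Inhbb was higher in ERβKO ovaries, about 2.13-fold, and was the gene of this system that passed the test with edgeR. Inha and Amhr2 had values of smaller size in the same direction that passed with DESeq2 and missed the threshold with edgeR. For Inhba, Amh, Fst, Fstl3, Tgfbr3, Acvr2a and Acvr2b no difference was detected with either tool. A gene was called when its Benjamini-Hochberg adjusted p over all genes tested was under 0.05, its absolute log2 fold change (ERβKO over WT) over 0.4 and its mean level over 1 FPKM in at least 1 genotype. By the quasi-likelihood test of edgeR, 1 of the 10 genes was called, where 1.72% of the 16722 genes tested were called in either direction and 0.915% were called higher in ERβKO ovaries. With DESeq2 3 of the 10 were called, all higher, where 2.19% of all genes tested were called higher. On adjusted p alone the count stayed at 1 of 10 (2.03% of all genes with edgeR). At an unadjusted p under 0.05 it was 4 of 10, namely Inhbb, Inha, Amhr2 and Tgfbr3, where 19.8% of all genes were under that value. Fold changes were above 0 for 7 genes and below 0 for 3, with a median log2 fold change of 0.24, against -0.00 over all genes tested.

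**Figure D1:**
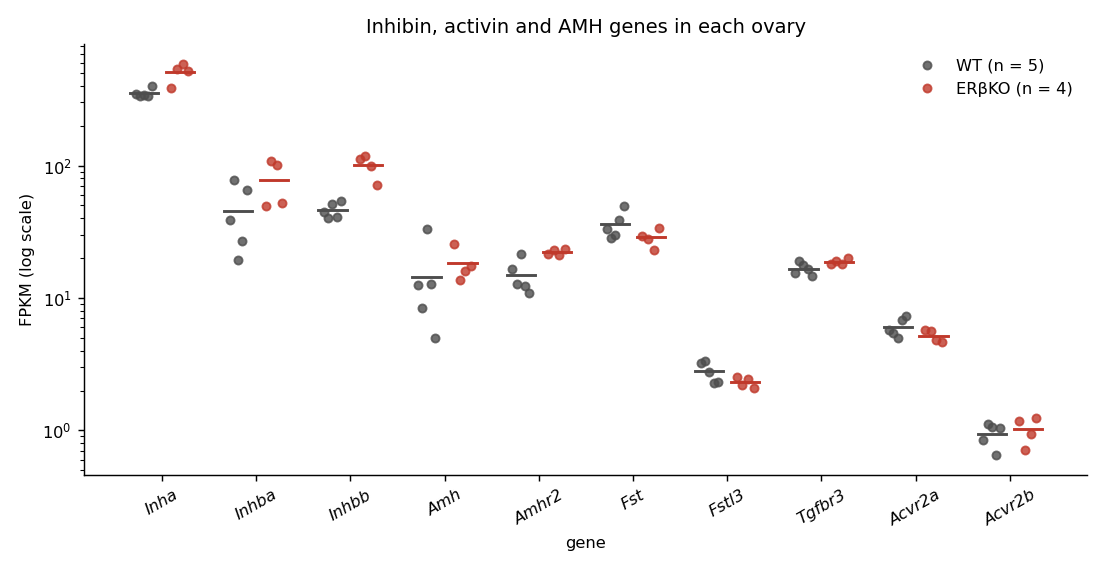
Level of each of the 10 genes in each ovary, in FPKM on a log axis, with grey points for the 5 WT ovaries, red points for the 4 ERβKO ovaries and a line at each mean. The Inhbb points of the genotypes stand apart (40.0 to 54.1 FPKM in WT, 71.6 to 118.8 FPKM in ERβKO), while Inhba and Amh spread widely within WT.

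The βB subunit gene Inhbb (ENSMUSG00000037035) lies on chromosome 1 of GRCm38 from 119415465 to 119422248 on the minus strand. Its transcript was measured at 44.6, 40.0, 51.0, 41.3 and 54.1 FPKM in WT replicates 1 to 5. In ERβKO replicates 1 to 4 it was 112, 118.8, 99.4 and 71.6 FPKM. The genotypes did not overlap, with ERβKO replicate 4 the nearest to the WT range. Such a separation, with all ERβKO above all WT values, was seen for 4.29% of the genes tested, and among the 10 genes for Inhbb alone. For Inhbb edgeR gave a log2 fold change of 1.09 (SE, standard error, 0.15; adjusted p = 0.00883). Leaving out WT replicate 2, edgeR gave 1.04 (adjusted p = 0.00807). With each ovary left out in turn it ran from 1.01 to 1.23, and it was called in each of those edgeR fits. In whole-ovary RNA, more cells that express a gene and more RNA per cell cannot be told apart.

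Granulosa cells are the main source of these subunits in the ovary, and 10 markers of them, none among the 10 genes, were read beside Inhbb. Their summed level was 775.6 to 828.8 FPKM in WT and 930.4 to 1216 FPKM in ERβKO ovaries, with no overlap. All 10 had a log2 fold change above 0, with a median of 0.33, 4 of them under an unadjusted p of 0.05. DESeq2 called 3 (Fshr, Gja1 and Hsd17b1) and edgeR 1, Hsd17b1, which encodes an enzyme that makes estradiol from estrone (WT 48.2 ± 9.0 FPKM, n = 5, ERβKO 85.1 ± 18.6 FPKM, n = 4, SD). Fshr, the FSH receptor, had the highest fold change of the list, 1.06 on the log2 scale, close to that of Inhbb, with an adjusted p of 0.0664 in edgeR. None of the 10 markers is at 0 in all ovaries. With the mean log2 CPM of these markers as a covariate, a measure that itself separates the genotypes, the log2 fold change of Inhbb was 0.88 (SE 0.27) and its edgeR adjusted p 0.409, and 5 genes were called in the whole table. With luteal markers as the covariate it was 1.07, with an adjusted p of 0.0712 in edgeR. The 10 luteal markers had a median log2 fold change of -0.86, with 9 below 0 and none called by edgeR (5 had an unadjusted p under 0.05 and DESeq2 called 3), and summed levels of 3133 to 6740 FPKM in WT and 2588 to 4076 FPKM in ERβKO ovaries. Theca markers summed to 632 to 918.9 FPKM in WT and 978 to 1821 FPKM in ERβKO ovaries, but their median log2 fold change was 0.08, with 4 of 6 above 0. The sum is mostly Aldh1a1, a retinal dehydrogenase gene that was called higher (520.7 FPKM in WT, 1092 FPKM in ERβKO ovaries as means), while Mgarp was at 181 and 108 FPKM and called lower by DESeq2, and Ptch1, Gli1 and Hhip had log2 fold changes of 0.03, 0.12 and -0.06. Sertoli cells of the testis also make inhibin B and AMH, and 5 markers of them summed to 6.38 to 11.4 FPKM in WT and 14.7 to 34.7 FPKM in ERβKO ovaries. All 4 tested had a log2 fold change above 0 and an unadjusted p under 0.05. Of these Aard and Rhox8 were called higher by edgeR, Cldn11 by DESeq2 but not edgeR (log2 fold change 0.87), and Sox9, present in every ovary at 1.24 to 4.28 FPKM, by neither (0.77). Dmrt1 was listed at 0 FPKM, with at most 3 counts in a library, and was not tested. Which cells of the ovary or oviduct held the transcripts of this list was not tested, so their levels do not show that Sertoli cells were present. Adipocyte markers had a median log2 fold change of 1.45, with 5 of 5 above 0 and under an unadjusted p of 0.05, none called by edgeR and 3 by DESeq2. They summed to 82.05 to 175 FPKM in WT ovaries and to 734.2, 265.6, 317.4 and 95.9 FPKM in ERβKO replicates 1 to 4, of which the first 3 are above every WT ovary. The part of these cell types in the Inhbb result was not tested beyond these fits.

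**Figure D2:**
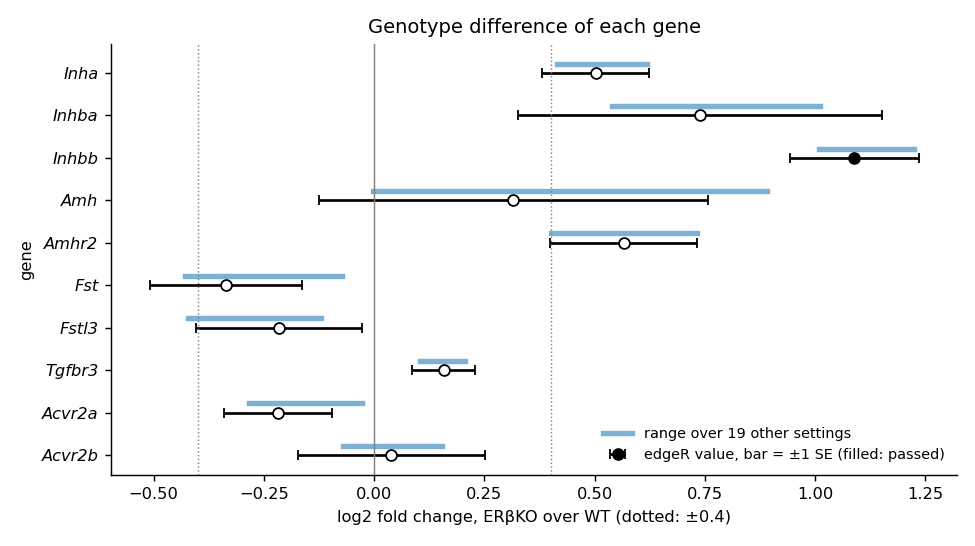
Log2 fold change (ERβKO over WT) of each gene from edgeR with its standard error as a bar, a filled point for the called gene, and in blue the range over 19 other settings of test, scaling, filter and left-out ovaries, the fits with a marker covariate not included. Inhbb stays above 1 in all of these settings, and the ranges of Amh and Acvr2b cross 0.

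The α subunit gene Inha (ENSMUSG00000032968), on chromosome 1 from 75507077 to 75510366 on the plus strand, was the most abundant of the 10 by far. WT ovaries held 348, 338, 340.5, 336 and 399 FPKM of it (replicates 1 to 5). It was 387, 539, 590.4 and 519.8 FPKM in ERβKO replicates 1 to 4. The lowest ERβKO value, that of replicate 1, lay below WT replicate 5, and the other 3 ERβKO ovaries were above every WT ovary. Inha had a log2 fold change of 0.50 (SE 0.12). Its adjusted p was 0.0610 by edgeR and 0.00744 by DESeq2. Without ERβKO replicate 1 the log2 fold change was 0.62 and the adjusted p by edgeR 0.0120, which is past the threshold. The other settings with a call were DESeq2 and edgeR with no filter on low counts (adjusted p = 0.0450), and without WT replicate 2 the adjusted p in edgeR was 0.0569.

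The AMH receptor gene Amhr2 (ENSMUSG00000023047), on chromosome 15 from 102445367 to 102454630 on the plus strand, was measured at 16.6, 12.8, 21.6, 12.4 and 10.9 FPKM in WT replicates 1 to 5. In ERβKO ovaries it was 21.4, 22.9, 21.2 and 23.5 FPKM. The ERβKO values lay within a narrow range at the top of the WT values, and WT replicate 3 was inside that range. The difference on the log2 scale was 0.57 (SE 0.17), and the adjusted p was 0.105 by edgeR and 0.0312 by DESeq2. Without WT replicate 3 the values were 0.73 and 0.0160 in edgeR, which is past the threshold. Without WT replicate 2 the adjusted p in edgeR was 0.102.

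Promoters were read from RefSeq (GRCm38.p6), 250 bases before to 50 bases after each start, for the 7 of the 10 genes listed there. The 3 shown are those of the genes called by edgeR or DESeq2, so that their start regions can be set side by side. They are chr1:75507359-75507658 on the plus strand for Inha, chr1:119422199-119422498 on the minus strand for Inhbb and chr15:102445117-102445416 on the plus strand for Amhr2, and capitals mark the motifs found. The RefSeq start of Inha lies inside the gene as the annotation of the counts places it, and so does the whole Inha window. The bases before the start in that annotation, 75507077, were thus not searched for Inha.
Inha: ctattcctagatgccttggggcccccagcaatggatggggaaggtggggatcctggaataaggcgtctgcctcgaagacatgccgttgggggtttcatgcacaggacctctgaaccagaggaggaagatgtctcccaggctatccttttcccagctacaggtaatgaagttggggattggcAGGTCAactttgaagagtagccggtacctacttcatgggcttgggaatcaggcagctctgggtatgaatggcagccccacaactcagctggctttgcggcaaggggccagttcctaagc
Inhbb: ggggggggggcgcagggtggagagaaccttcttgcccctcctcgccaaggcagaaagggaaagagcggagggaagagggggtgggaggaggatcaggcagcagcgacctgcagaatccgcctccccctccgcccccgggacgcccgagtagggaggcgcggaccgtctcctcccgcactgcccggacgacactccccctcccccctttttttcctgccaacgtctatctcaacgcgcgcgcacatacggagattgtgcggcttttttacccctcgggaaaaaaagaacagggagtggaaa
Amhr2: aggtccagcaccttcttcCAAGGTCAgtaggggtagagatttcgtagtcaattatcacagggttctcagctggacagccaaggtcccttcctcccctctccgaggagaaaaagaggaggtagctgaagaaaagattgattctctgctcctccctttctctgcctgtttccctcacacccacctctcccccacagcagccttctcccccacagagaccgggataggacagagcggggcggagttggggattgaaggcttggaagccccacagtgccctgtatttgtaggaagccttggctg

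Both strands were searched for 8 motifs. The full estrogen response element, GGTCA and TGACC spaced by 3 bases, is held by 0.07% of the 32851 promoters in the RefSeq table and by none of these 7. The shorter AGGTCA, a single arm of it, held by 16.3% of all promoters, is in Inha from -69 to -64 of the start, in Amhr2 from -230 to -225, and on the minus strand of Fstl3 from -200 to -195. In Amhr2 it is part of CAAGGTCA, the site of the NR5A receptors SF-1 and LRH-1, which 1.56% of all promoters hold. The cAMP response element TGACGTCA (1.79% of promoters), its variant TGCGTCA (2.12%), the GATA motif AGATAA (11.2%), the AP-1 motif TGANTCA (7.81%) and the FOXO motif GTAAACA (3.65%) are in none of the 7. None of the 8 motifs is in the windows of Inhba, Inhbb, Acvr2a or Acvr2b, which says only that these letters are not there.

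The βA subunit gene Inhba (ENSMUSG00000041324, chromosome 13 from 16011851 to 16027211) varied most between ovaries of a genotype together with Amh. It was measured at 38.7, 77.6, 19.2, 26.9 and 65.7 FPKM in WT replicates 1 to 5. The ERβKO ovaries had 49.5, 108, 101.6 and 51.9 FPKM. The highest WT ovary thus had 4.04 times the level of the lowest, and ERβKO replicates 2 and 3 were above all WT ovaries. The SD of its log2 CPM among WT ovaries, 0.84, was at percentile 97.0 of all genes tested, and that among ERβKO ovaries at percentile 95.2. Its log2 fold change of 0.74 had an SE of 0.41. Its adjusted p was 0.352 by edgeR and lay between 0.151 and 0.612 over the settings without a marker covariate. In the fit with the granulosa covariate its sign turned, to -0.92.

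Amh itself (ENSMUSG00000035262, chromosome 10 from 80805248 to 80807648) was at 12.6, 8.46, 33.1, 12.7 and 5.01 FPKM in WT replicates 1 to 5 and at 25.7, 13.8, 16.1 and 17.6 FPKM in ERβKO replicates 1 to 4. All ERβKO values lay inside the WT range, which spanned 6.60-fold. Its genotype difference was 0.32 on the log2 scale (SE 0.44, adjusted p = 0.735 by edgeR). It was 0.89 without WT replicate 3, the ovary with the most Amh, where edgeR gave an adjusted p of 0.12, and 0.10 without WT replicate 5, the ovary with the least. Among WT ovaries the SD of Amh, 0.98 in log2 CPM, was at percentile 98.4 of all genes tested. The ovary with the most Amh, WT replicate 3, was the one with the least Inhba, and the WT ovaries with the least Amh, replicates 5 and 2, had the most Inhba.

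The binding proteins had fold changes below 0 that were within the spread between ovaries. Fst (ENSMUSG00000021765) was at 33.1, 28.6, 29.8, 38.9 and 49.5 FPKM in WT and at 29.5, 28.0, 23.2 and 34.0 FPKM in ERβKO ovaries, which overlap (log2 fold change -0.34, SE 0.17, edgeR adjusted p = 0.315). Fstl3 (ENSMUSG00000020325) ranged from 2.28 to 3.36 FPKM in WT and from 2.09 to 2.52 FPKM in ERβKO ovaries, a log2 fold change of -0.22 (SE 0.19, edgeR adjusted p = 0.563). Of its exon bases 47.3% are covered by Prss57 on the opposite strand, a gene with at most 3 counts in any library. The co-receptor gene Tgfbr3 (ENSMUSG00000029287) was among the steadiest of the 10, with 14.7 to 18.98 FPKM in WT and 17.9 to 19.9 FPKM in ERβKO ovaries. The log2 fold change came to 0.16 (SE 0.071, edgeR adjusted p = 0.251).

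The activin type II receptor genes were low. Acvr2a (ENSMUSG00000052155) had 5.00 to 7.26 FPKM in WT and 4.66 to 5.78 FPKM in ERβKO ovaries. The fold change on the log2 scale was -0.22 (SE 0.12, adjusted p = 0.355 in edgeR). Acvr2b (ENSMUSG00000061393) had 0.65 to 1.11 FPKM in WT and 0.71 to 1.24 FPKM in ERβKO ovaries, from 27 to 53 counts in a library. Its log2 fold change was 0.04 (SE 0.21, adjusted p = 0.941 in edgeR), and these low counts limit its precision. The ranges of both receptors overlap between the genotypes.

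Set in order of FPKM, which is a level per length, WT ovaries had Inha at 352 ± 26.5 FPKM, Inhbb at 46.2 ± 6.1, Inhba at 45.6 ± 25.1, Fst at 36.0 ± 8.5, Tgfbr3 at 16.7 ± 1.7, Amhr2 at 14.8 ± 4.3, Amh at 14.4 ± 10.9, Acvr2a at 6.05 ± 0.95, Fstl3 at 2.79 ± 0.50 and Acvr2b at 0.94 ± 0.19 FPKM (SD, n = 5). Inha was above Inhbb in every ovary with no overlap of ranges, and so were Fst over Tgfbr3, Acvr2a over Fstl3 and Fstl3 over Acvr2b. Neighbours among Inhbb, Inhba and Fst overlapped, as did those among Tgfbr3, Amhr2, Amh and Acvr2a. In ERβKO ovaries Inha (509 ± 86.5 FPKM) was again first, followed by Inhbb at 100.5 ± 20.8 FPKM and Inhba at 77.8 ± 31.4 FPKM (SD, n = 4), and these β subunits overlapped. Where Inhba stands depended on the length used. When CPM were divided by the length of all annotated exons (6390 bases for Inhba and 4255 for Inhbb), the WT level of Inhba was 17.3 ± 9.6 and that of Inhbb 64.8 ± 8.7 scaled counts per kilobase (SD, n = 5), so that Inhbb was 4.24 times Inhba as a geometric mean, against 1.15 times by FPKM.

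As subunits and binding proteins act in combination, 4 ratios of FPKM within an ovary were compared between the genotypes by two-sided exact permutation tests, which cannot give a p below 0.0159 here, with Benjamini-Hochberg adjustment over the 4. None passed the adjustment. The ratio of the binding proteins, Fst and Fstl3 together, to the β subunits, Inhba and Inhbb together, had the widest difference. It was 0.435, 0.272, 0.464, 0.604 and 0.432 in WT replicates 1 to 5 and 0.198, 0.133, 0.128 and 0.292 in ERβKO replicates 1 to 4. By FPKM the genotypes overlapped through WT replicate 2 and ERβKO replicate 4, and the ERβKO geometric mean was 0.414 times the WT one (exact permutation test, p = 0.0318, adjusted p = 0.127). With CPM or per kilobase of annotated exon the genotypes did not overlap in this ratio. On both of these scales the exact permutation p was 0.0159, the smallest possible, and the adjusted p 0.0635. Inha relative to the β subunits was 2.87 to 4.93 in WT and 2.38 to 4.21 in ERβKO ovaries (exact permutation p = 0.143, adjusted p = 0.286). This ratio too depended on the length used: its geometric mean in WT and ERβKO ovaries was 3.95 and 2.90 by FPKM, and 6.18 and 4.30 per kilobase of annotated exon (exact permutation p = 0.0476, adjusted p = 0.0952). Inhbb relative to Inhba ran from 0.516 to 2.66 in WT and from 0.978 to 2.26 in ERβKO ovaries (exact permutation p = 0.667, adjusted p = 0.889). Amh relative to Inha was 0.0126 to 0.0971 in WT and 0.0255 to 0.0664 in ERβKO ovaries (exact permutation p = 0.921, adjusted p = 0.921).

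**Figure D3:**
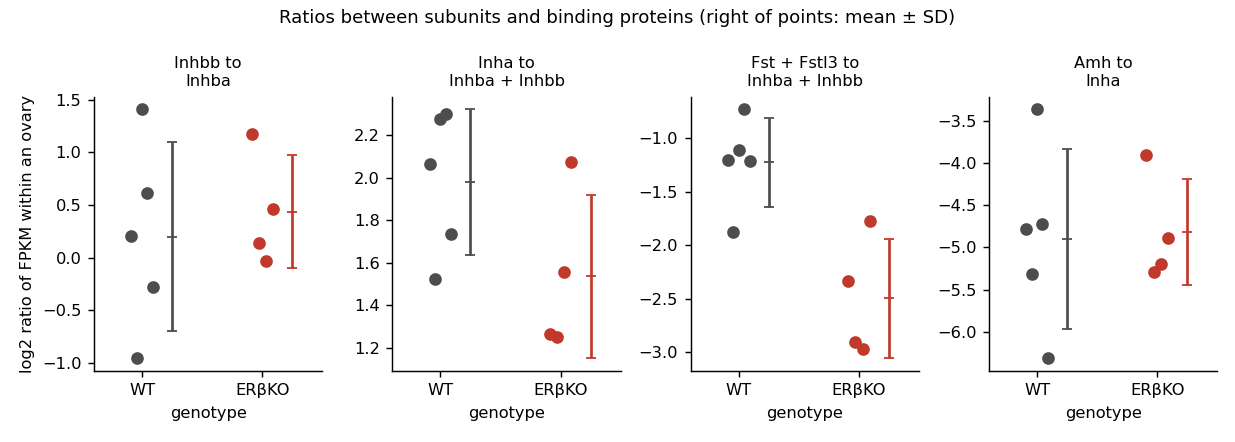
Log2 ratio of FPKM within an ovary for 4 pairs of genes or sums, with a point per ovary (5 WT in grey, 4 ERβKO in red) and the mean ± SD to the right of the points. In the third panel the ERβKO ovaries lie lower than most WT ovaries, with a mean log2 difference of -1.27, and in the other panels the genotypes overlap widely.

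Genes with a profile most like that of a ligand gene over the 9 ovaries were sought among 14178 genes by the root mean square difference of centred log2 CPM. For Inhbb these were Cacna1a, a calcium channel subunit (difference 0.21), the granulosa marker Hsd17b1 (0.22) and Gdnf, a neurotrophic factor (0.24), where the median gene differed by 0.61. For Inha they were Mapre2, a microtubule end-binding protein (0.11), the adiponectin receptor gene Adipor2 (0.12) and the peroxisomal oxidase gene Acox3 (0.12), with a median gene at 0.36. For Amh they were Slc18a2, a vesicular monoamine transporter (0.21), Vrtn (0.24) and Gm14820 (0.28), with a median gene at 0.77. Slc18a2 ran from 9.57 FPKM in WT replicate 5 to 40.1 FPKM in WT replicate 3, the same ovaries that had the least and the most Amh, which follows from how it was chosen. Inhba had no close match: the nearest were Zcchc16 (0.39), the clock gene Per2 (0.41) and Ggct (0.43), with a median gene at 0.81. The 4 ligand genes were less like each other, with a difference of 0.41 between Inha and Inhbb, 0.69 between Inhba and Inhbb, and 1.32 between Inhba and Amh. The value of 0.41 is above the median gene for Inha (0.36) and below that for Inhbb (0.61). That of 0.69 is above the median for Inhbb and below that for Inhba (0.81). Inhba and Amh differed by more than the median gene did from either of them (0.81 and 0.77).

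**Figure D4:**
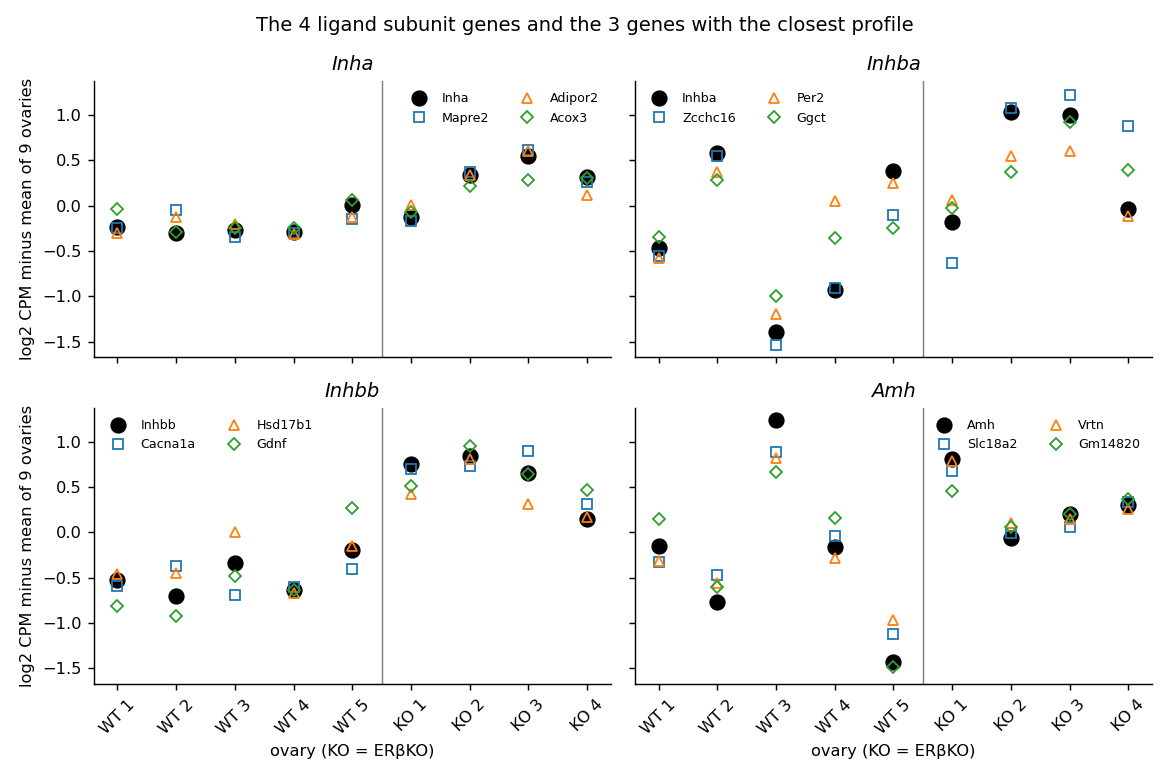
Log2 CPM of Inha, Inhba, Inhbb and Amh (black circles) in each of the 9 ovaries, minus the mean over the ovaries, with the 3 genes of the closest profile in open symbols. Inhbb and its 3 genes are higher in the ERβKO ovaries, and Amh and its 3 genes have their highest values in WT replicate 3 and their lowest in WT replicate 5. The genes were chosen for this likeness, so it is no separate result.

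The other genes of the pathway were read from 10 lists with 86 genes, of which 79 were tested. None was called by edgeR (1.72% of all genes), and 17, or 21.5%, had an unadjusted p under 0.05, near the 19.8% of all genes. DESeq2 called 6, where it called 4.66% of all genes in either direction, and of the 6 3 were higher (Fshr, Gata4 and Smad6) and 3 lower (Tgfbr1, Smad1 and Skil). Log2 fold changes were above 0 for 45 genes and below 0 for 34, with a median of 0.04. Acvr1c, which encodes the type I receptor ALK7, had the smallest adjusted p in edgeR, 0.0317, and missed the call on its level. It was at 0.270, 0.263, 0.387, 0.534 and 0.217 FPKM in WT and at 1.19, 0.804, 0.814 and 0.659 FPKM in ERβKO ovaries, with a log2 fold change of 1.35 (SE 0.26). All ERβKO ovaries were above all WT ovaries, as for 4.29% of all genes tested and for other genes of these lists, such as Gata4. Gata4, a transcription factor that acts on granulosa genes, differed by 0.63 on the log2 scale without passing (SE 0.16, adjusted p = 0.0628 in edgeR), with 26.7 to 40.4 FPKM in WT and 43.2 to 67.0 FPKM in ERβKO ovaries. Fshr, through which FSH drives granulosa cells, had 8.83 ± 3.5 FPKM (SD, n = 5) in WT against 18.7 ± 5.3 FPKM (SD, n = 4) in ERβKO ovaries.

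By role, the 14 tested ligands among 19, such as Bmp2 and Gdf9, had a median log2 fold change of 0.14 and none with an unadjusted p under 0.05 (none called by edgeR or DESeq2). The remaining β subunit genes, Inhbc and Inhbe, were listed at 0 FPKM in all ovaries. Among 7 type I receptors the median was 0.21. An unadjusted p under 0.05, as for 19.8% of all genes, was seen for 4 of them, with fold changes above 0 for Acvr1 (0.36), Acvr1c and Acvrl1 (0.21) and below 0 for Tgfbr1 (-0.85). Acvr1b, a type I receptor of activins but not the only one, had 7.44 ± 1.2 FPKM (SD, n = 5) in WT against 7.76 ± 0.59 FPKM (SD, n = 4) in ERβKO ovaries, at a log2 fold change of 0.05 (edgeR adjusted p = 0.823). For 8 SMADs, the proteins that carry the signal to the nucleus, the median was -0.08, and for 7 SMAD target genes -0.12. It was 0.17 for 2 other type II receptors, 0.13 for 6 co-receptors, 0.09 for 12 binding proteins, -0.11 for 5 proteases that cleave the precursors, 0.18 for 14 transcription factors and 0.51 for 4 hormone receptors.

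**Figure D5:**
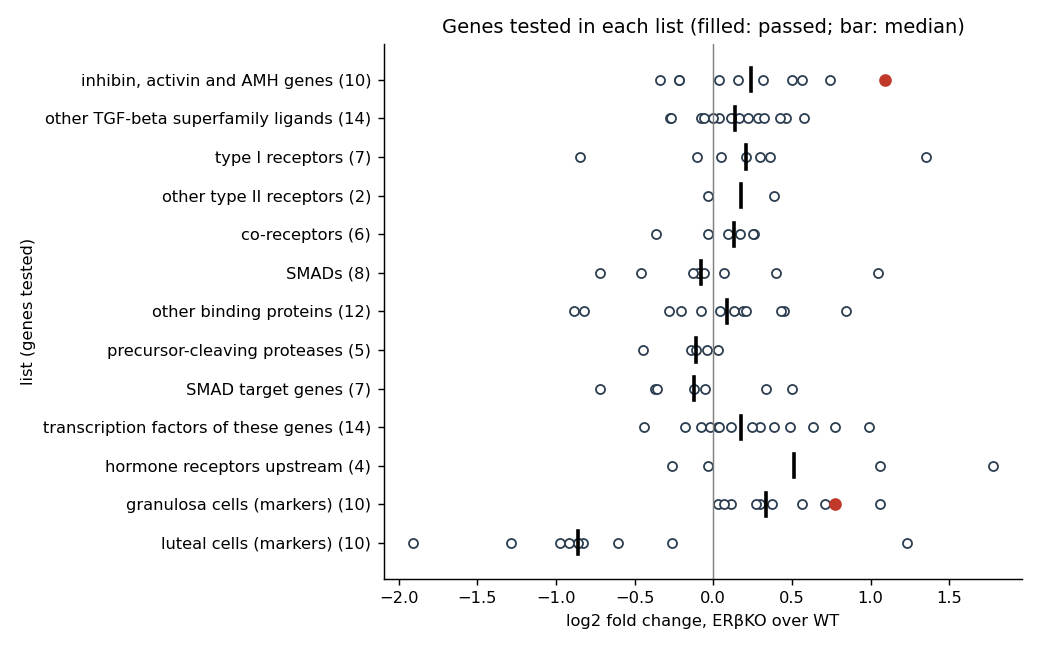
Log2 fold change (ERβKO over WT) of each tested gene of the inhibin, activin and AMH system, of the 10 pathway lists and of the granulosa and luteal markers, with a bar at each list's median and filled points for called genes. Inhbb is the filled point at 1.09 and Hsd17b1 that at 0.77, while the luteal markers have their median at -0.86.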

How the data were processed

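RNA-seq libraries of whole ovaries (5 WT, 4 ERβKO, groups from the sample titles) were stranded and poly-A selected. Per the study's methods the authors mapped read pairs to GRCm38 with STAR. Counts were deposited as raw fragments per gene from featureCounts, not normalized, and strand use is not given in the sources used here. StringTie gave the deposited FPKM, and also the TPM and coverage (signal) that the authors deposited, which were not used for a result. Genes filtered with filterByExpr in edgeR 4.0.16 (R 4.3.3) left 16722, which were normalized by TMM and tested by quasi-likelihood with Benjamini-Hochberg adjustment. The thresholds are the study's. Its tool, DESeq2 1.42.0, was an alternative, as were 2 other size factors, 2 filters, limma 3.58.1 on log2(FPKM + 1) or log2(FPKM + 0.1), marker covariates, a replicate block and each ovary left out. Scripts were tested on simulated data. Exact tests used SciPy 1.17.1. The text names the 10 genes, Esr2, the 3 pathway genes with the smallest adjusted p, called granulosa, luteal markers, and the 3 genes most like each ligand; other names illustrate a list, and were chosen after values were seen. The members, lists and rules were chosen with earlier results of these data known. Standard errors come from the fold change and the F statistic. Proteins were not analysed here.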

Additional observations from a re-analysis of the deposited data

Results flagged for a closer look

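Inha was 398.9 FPKM in WT replicate 5, and its gap to the other WT ovaries was 0.806 of the range of the group, so that this ovary stood apart from the 4 others at 336 to 348 FPKM. Amh was 33.1 FPKM in WT replicate 3, with a gap of 0.725 of the range of the WT ovaries. Of 28 groups of values looked at, these 2 stood apart. Chance alone gives about 1 in 20 groups, so 2 of 28 is near the number that chance gives. Without WT replicate 5 the log2 fold change of Inha was 0.56, with an adjusted p of 0.0775 in edgeR.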

How the results depend on the processing

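Inhbb was called in all 19 settings without a marker covariate (log2 fold change 1.01 to 1.23, adjusted p 2.43e-09 to 0.0402), and was not called with the granulosa (0.88, adjusted p 0.409) or the luteal covariate (1.07, adjusted p 0.0712). Of the 10 genes, DESeq2 called 3, no filter on low counts 2 and each covariate 0, and leaving out an ovary gave 1 to 2 (2 without WT replicate 3 or ERβKO replicate 1). Of the pathway genes, where the fit reported called 0, DESeq2 called 6, no filter 3 and adjusted p alone 1, and leaving out an ovary gave 0 to 5 (5 without WT replicate 2, 3 without WT replicate 3, 2 without ERβKO replicate 1). Over all genes the 287 calls became 805 with DESeq2, 155 with the replicate block, 51 in libraries numbered below 200 (without WT replicates 4 and 5), 5 and 21 with the granulosa and luteal covariates, and 60 (without ERβKO replicate 2) to 919 (without WT replicate 2) with an ovary left out. Signs turned for Inhba with the granulosa covariate (-0.92), for Amh with the luteal covariate (-0.031) and in libraries numbered below 200 (-0.0021), and for Acvr2b in the latter (-0.047) and without WT replicate 4 (-0.070), ERβKO replicate 1 (-0.037) or ERβKO replicate 4 (-0.033), in a range of -0.070 to 0.154 with an ovary left out. The log2 ratio of Inhbb to Inhba, 0.24, was -0.052 to 0.54 with an ovary left out (-0.052 without WT replicate 2, -0.01 without ERβKO replicate 1). That of Amh to Inha, 0.08, was -0.27 without WT replicate 5, -0.22 without ERβKO replicate 1, -0.03 without WT replicate 2 and -0.27 with the replicate block, in a range of -0.27 to 0.46 with an ovary left out. In libraries numbered below 200 the log2 fold change of Fst went from -0.34 to -0.07, that of Acvr2a from -0.22 to -0.03 and that of Fstl3 from -0.22 to -0.42, none of them called. The cause of these changes was not tested.

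Replicate numbers are shared between the genotypes. Deviations from the group means correlated at -0.04 to 0.13 between same-numbered ovaries and at -0.30 to 0.20 between the others. Correlations of this kind cannot decide whether the numbers pair the mice, and the labels name no pairing. With the replicate block the log2 fold change of Inhbb was 1.15 (adjusted p = 0.0265 in edgeR). The counts behind Acvr2b, at most 53 per library, limit what could be seen.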

Other observations

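Other genes moved with the wide spread of Inhba and Amh within WT, and are given here as values chosen after they were seen. Cyp19a1, the aromatase gene of large follicles, was at 2.94, 24.2, 4.16, 2.31 and 15.3 FPKM in WT replicates 1 to 5, highest in replicates 2 and 5, which also had the most Inhba. In ERβKO replicates 1 to 4 it was 6.38, 21.98, 29.4 and 6.38 FPKM, again highest in replicates 2 and 3, which had the most Inhba. The 9 oocyte markers summed to 63.8, 65.9, 113.1, 91.5 and 35.8 FPKM in WT replicates 1 to 5, highest in replicate 3 and lowest in replicate 5, as was Amh. In ERβKO ovaries they summed to 146.5, 82.5, 76.4 and 112.5 FPKM, and replicate 1 had the most of both. The mice span a range of ages and were not staged, and neither was tested against these values.

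ERβKO replicate 1 had the highest sum of adipocyte markers and the lowest Inha of the ERβKO ovaries. Its Inhbb, at 112 FPKM, was within the range of the other ERβKO ovaries.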
